A study of Mus musculus with 15 samples.

Results

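The genes described here encode subunits of Polycomb repressive complex 1 (PRC1): the catalytic pair Ring1 and Rnf2, the Pcgf proteins Bmi1, Pcgf1 and Pcgf2, the polyhomeotic proteins Phc1, Phc2 and Phc3, and the partners Rybp and Yaf2. They were taken by name from the array annotation, as every non-control probe whose gene name was one of these symbols. This gave 10 genes of 31074 gene names on the array, read by 16 probes of 39429, of which 14 probes and all 10 genes lay well above background on at least 3 arrays of some group. Total RNA from mouse embryonic stem (ES) cells and from embryoid bodies named EB9 was measured on Agilent 1-colour arrays. Embryoid bodies are aggregates in which ES cells differentiate; the labels do not explain the 9 in the name. The KD33 arrays, 4 of ES cells and 4 of EB9, are labelled as depleted of Cbx7, a chromodomain subunit of PRC1, and the labels name a single such line or hairpin, 33. The control arrays, 3 of ES cells and 4 of EB9, carry no treatment in their labels, and the series' design calls the ES control shCtr, the usual form of name for a control hairpin. Each array is labelled a biological replicate, with numbers 1 to 4 in each group except the ES control, which has 2, 3 and 4; whether the replicates were separate cultures is not stated in the sources used here, so p-values measure the spread between these arrays. No strain, cell line or feeder layer was named.

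PRC1 silences developmental genes by placing ubiquitin on histone H2A and by compacting chromatin. Every form of the complex holds Ring1 or its paralog Rnf2, the E3 ubiquitin ligases, bound to 1 of the Pcgf proteins. Canonical complexes hold Pcgf2 (also called Mel18) or Bmi1 together with a Cbx protein, which reads the methyl mark left by Polycomb repressive complex 2 (PRC2), and a Phc protein, whose SAM domain polymerises. Variant complexes hold Rybp or Yaf2 in place of the Cbx protein, stimulate H2A ubiquitination more strongly, and include the form built on Pcgf1, which the DNA-binding protein Kdm2b brings to unmethylated CpG islands. Paralogs within each position can replace one another, so which of them a cell transcribes bears on which complexes it can build.

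The probes are 60 bases long, and all of the positions below are in build mm9 as the scanner files give them. Exon and UTR annotation in that build was not used here. The following 2 probes align over more genome than their own length, so that they cross at least 1 intron, and are shown because a spliced transcript is what they can read. The Pcgf1 probe spans chr6:83030111-83030579 on the plus strand, 469 bases of genome, and was the only Pcgf1 probe. The Pcgf2 probe spans chr11:97553207-97553380 on the minus strand, 174 bases of genome, and was the dimmer of 2 probes for that gene. Each is printed 5′ to 3′ in lower case throughout, with no part singled out.
Pcgf1 probe: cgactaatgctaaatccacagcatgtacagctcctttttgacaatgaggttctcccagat
Pcgf2 dimmer probe: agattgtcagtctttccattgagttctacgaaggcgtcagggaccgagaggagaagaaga
The other 14 probes each lie within 1 unbroken stretch of genome. They include the only probes of Ring1 (chr17:34158164-34158223), Rnf2 (chr1:153316987-153317046), Phc2 (chr4:128430039-128430098) and Rybp (chr6:100178610-100178669). No stretch longer than 10 bases was shared between probes of different member genes, a length reached by a Phc3 and a Phc2 probe.

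Arrays were of similar quality: 62.5% to 69.0% of probes lay well above background on 14 arrays and 75.4% on EB9 control 2, and no spot was saturated. A level below is the log2 processed signal minus the 75th percentile of the array; it compares a probe between arrays and never 1 gene with another. Cbx7 itself was read by 2 probes. The probe matched to its RefSeq transcript stood at -6.30, -3.14 and -3.04 in ES control 2, 3 and 4 and at -7.85, -4.44, -4.61 and -7.38 in ES KD33 1 to 4, a log2 difference of -1.91 (limma, adjusted p = 0.256). Its level moved with the slide, and with slide in the model the difference was -1.41 (adjusted p = 0.0001002); in EB9 it was -0.27 (adjusted p = 0.221 with slide). This probe was not well above background on arrays 1 and 4 of ES KD33, EB9 control and EB9 KD33, which limits what it can show in EB9. The second Cbx7 probe differed by -0.13 in ES cells (adjusted p = 0.733) and by -0.16 in EB9 (adjusted p = 0.708), so in EB9 neither probe was lower past the test and KD33 names the label of these arrays. The labels of the cells were checked on marker genes: the log2 summed level of 10 pluripotency markers was 8.26 to 8.52 over all ES arrays and 4.05 to 4.62 over all EB9 arrays, and that of 11 mesoderm and endoderm markers 1.05 to 1.60 against 5.01 to 5.13.

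Between control ES cells and control EB9, the makeup of the Phc, Pcgf and Rybp/Yaf2 transcripts differed, while of the catalytic pair Rnf2 rose slightly and Ring1 did not pass the test. Yaf2 was 4.61-fold and Phc2 3.03-fold higher in EB9, Bmi1 was 2.16-fold higher, and Phc1 was 5.46-fold lower. Pcgf1 and Rybp were lower by 1.45-fold and 1.47-fold. Of the 10 genes, 4 rose, 3 fell and 3 did not pass an adjusted p of 0.05, and their median log2 change was 0.10. Over all 27270 probes tested 74.9% passed, 33.7% higher and 41.2% lower, with a median of -0.13, so that a share of 7 in 10 is near the background. The sizes of the members' changes were not compared with those of all probes. In bulk RNA, fewer cells of a type and less RNA per cell cannot be told apart.

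**Figure D1:**
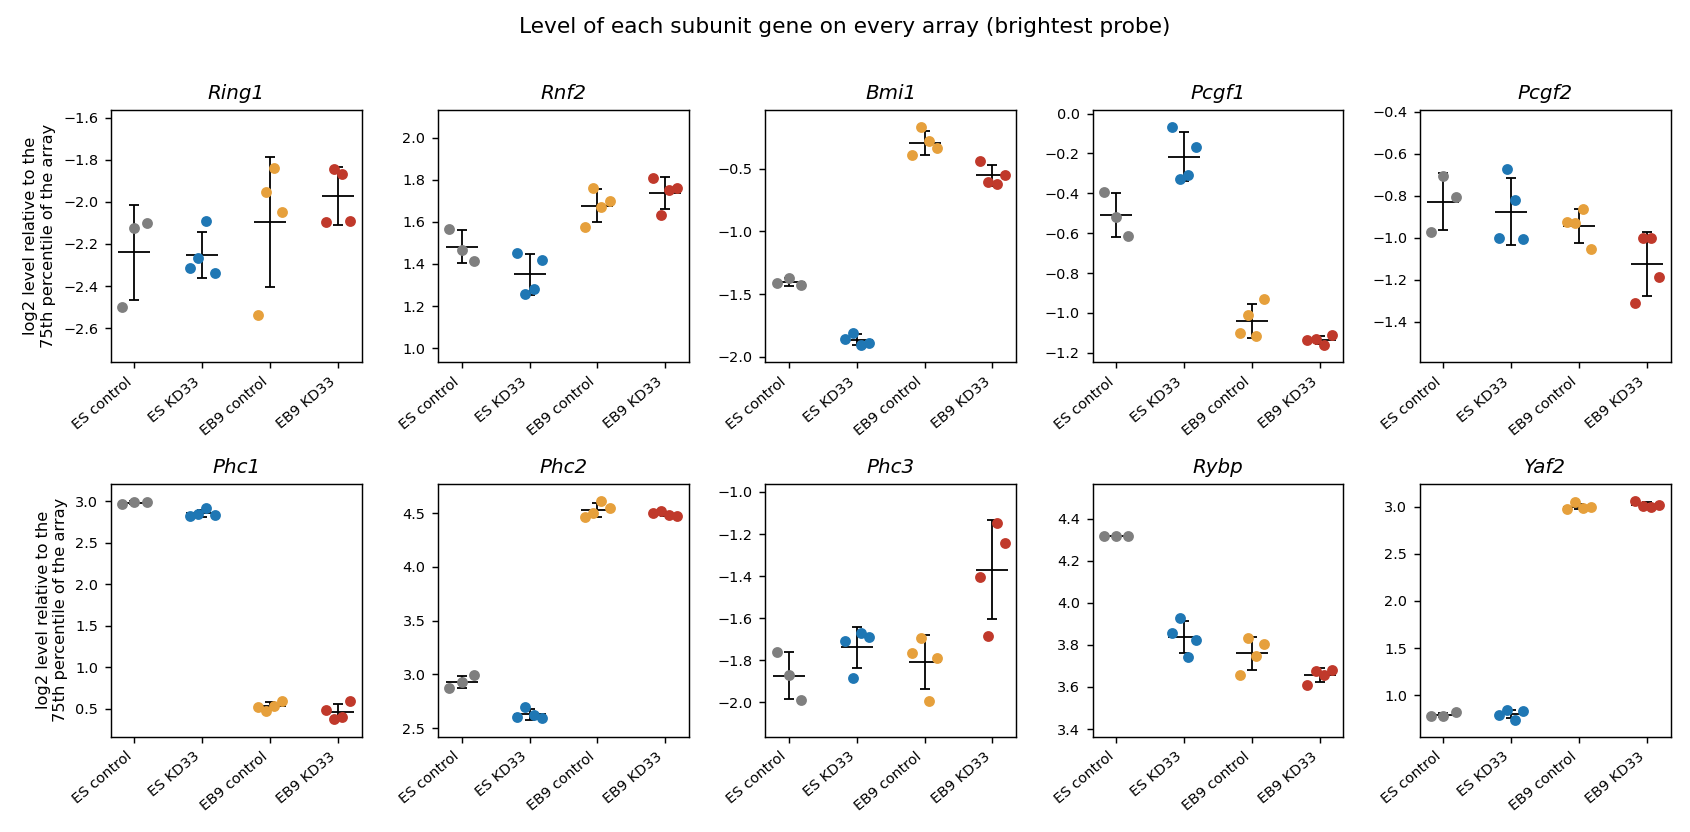
The level (log2, set against each array's 75th percentile) is plotted for the brightest probe of each of the 10 genes, with 1 point per array, a bar at the group mean and whiskers of 1 SD; each panel has its own axis. Phc1 sits near 3 in both ES groups and near 0.5 in both EB9 groups, Yaf2 runs the other way, and Rybp in the ES control arrays stands above all other groups.

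Among the core subunits, Ring1 is 1 of the 2 alternative ligases and Rnf2 (Ring1b) is the other, the one that ES cells depend on for most H2A ubiquitination. Rnf2 stood at 1.57, 1.46 and 1.41 in the ES control arrays and at 1.58, 1.76, 1.67 and 1.70 in the EB9 control arrays. The groups did not overlap, but the nearest arrays were at 1.568 and 1.576 and the change was small (log2 0.20, SE 0.069, adjusted p = 0.0207); it did not pass without ES control 3 (0.19, adjusted p = 0.0596), without ES control 4 (0.16, adjusted p = 0.0873) or without EB9 control 2 (0.17, adjusted p = 0.0548). Ring1 overlapped between the groups, at -2.50, -2.12 and -2.10 against -2.54, -1.95, -1.84 and -2.05. Its change of 0.15 (95% interval -0.19 to 0.48, adjusted p = 0.406) did not pass, and was 0.29 (adjusted p = 0.0400) without EB9 control 1.

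Of the 5 canonical subunits Phc2 and Bmi1 rose, Phc1 fell and Phc3 and Pcgf2 did not pass. Phc1, whose SAM domain can chain complexes together, stood at 2.96, 2.99 and 2.99 in the ES control arrays and at 0.53, 0.48, 0.53 and 0.60 in the EB9 control arrays. The groups were far apart (log2 -2.45, SE 0.056, adjusted p = 2.219e-13). A second Phc1 probe, designed on a cDNA clone and near background (chr6:122288521-122288580), fell by 0.92 (adjusted p = 0.0005155), less than the first. Phc2, its paralog with the same domain, stood at 2.87, 2.93 and 2.99 in ES control and at 4.46, 4.50, 4.61 and 4.54 in EB9 control (log2 1.60, SE 0.050, adjusted p = 4.431e-12). Every EB9 control array was thus higher than every ES control array for Phc2 and lower for Phc1. Phc3, the remaining polyhomeotic gene, overlapped between the groups (-1.76, -1.87 and -1.99 against -1.77, -1.69, -1.99 and -1.79; log2 0.063, 95% interval -0.19 to 0.32, adjusted p = 0.641).

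Bmi1, the Pcgf protein known for self-renewal of adult stem cells and for repression of the Ink4-Arf locus, stood at -1.41, -1.37 and -1.43 in ES control. In EB9 control it stood at -0.39, -0.17, -0.28 and -0.34 (log2 1.11, SE 0.062, adjusted p = 1.585e-09). Its second probe, on the same transcript, rose by 1.00 (adjusted p = 1.721e-08), so that both probes read the same direction and nearly the same size. Pcgf2, which can take the place of Bmi1 in canonical complexes, stood at -0.97, -0.71 and -0.81 in ES control and at -0.92, -0.93, -0.86 and -1.05 in EB9 control. Its groups overlapped on both probes (log2 -0.11, 95% interval -0.34 to 0.11, adjusted p = 0.337; dimmer probe -0.023, adjusted p = 0.822).

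Of the variant subunits, Pcgf1, the partner of Bcor and Kdm2b, stood at -0.40, -0.52 and -0.61 in ES control and at -1.10, -1.01, -1.12 and -0.93 in EB9 control. It fell by 0.53 (SE 0.074, adjusted p = 1.976e-05), with no overlap. Rybp, a zinc finger protein that binds Ring1 or Rnf2 where a Cbx protein would, was tight in ES control, at 4.319, 4.317 and 4.319, and stood at 3.66, 3.83, 3.75 and 3.80 in EB9 control (log2 -0.56, SE 0.056, adjusted p = 6.688e-07). Yaf2, its paralog, stood at 0.78, 0.78 and 0.82 in ES control and at 2.98, 3.04, 2.98 and 3.00 in EB9 control. That is a rise of 2.21 (SE 0.043, adjusted p = 5.198e-14), and a second Yaf2 probe on the same transcript rose by 1.67 (adjusted p = 5.246e-11). All 3 variant subunits therefore differed between the stages, 1 up and 2 down, beside 2 up, 1 down and 2 not passed among the 5 canonical ones. Over all probes 74.9% passed in this comparison, and with so few genes the counts are not read as a difference between the classes. In all, 7 of the 10 genes had groups that did not overlap, beside 72.9% of all probes.

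Because Phc1 and Phc2 moved apart and Bmi1 rose, the 250 bases before their RefSeq transcription starts are shown (build GRCm38.p6, minus or plus strand as the gene, 5′ to 3′). Capitals mark matches on either strand to 5 motifs: the GC box GGGCGG, the CCAAT box, the E-box CACGTG, the TATA box TATAAA and the octamer ATGCAAAT; neighbouring GC boxes may share bases. Phc2 has 3 annotated starts, and which of them gave the transcripts read here was not measured.
Phc1, chr6:122340228-122340477, minus strand: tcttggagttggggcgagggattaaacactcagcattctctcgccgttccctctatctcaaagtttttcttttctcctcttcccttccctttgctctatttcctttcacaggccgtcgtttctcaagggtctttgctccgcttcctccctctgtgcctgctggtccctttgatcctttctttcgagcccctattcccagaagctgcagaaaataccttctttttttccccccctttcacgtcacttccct
Phc2 upstream start, chr4:128654452-128654701, plus strand: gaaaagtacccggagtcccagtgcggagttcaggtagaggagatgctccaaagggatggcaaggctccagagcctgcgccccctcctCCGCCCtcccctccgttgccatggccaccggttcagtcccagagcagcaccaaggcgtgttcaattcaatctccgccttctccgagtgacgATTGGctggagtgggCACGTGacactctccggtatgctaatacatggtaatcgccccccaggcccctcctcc
Phc2 middle start, chr4:128688488-128688737, plus strand: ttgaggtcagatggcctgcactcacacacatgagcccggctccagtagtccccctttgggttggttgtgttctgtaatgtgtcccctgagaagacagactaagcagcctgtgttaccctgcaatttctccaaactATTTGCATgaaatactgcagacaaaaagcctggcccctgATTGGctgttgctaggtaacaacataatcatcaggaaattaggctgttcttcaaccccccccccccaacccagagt
Phc2 downstream start, chr4:128727321-128727570, plus strand: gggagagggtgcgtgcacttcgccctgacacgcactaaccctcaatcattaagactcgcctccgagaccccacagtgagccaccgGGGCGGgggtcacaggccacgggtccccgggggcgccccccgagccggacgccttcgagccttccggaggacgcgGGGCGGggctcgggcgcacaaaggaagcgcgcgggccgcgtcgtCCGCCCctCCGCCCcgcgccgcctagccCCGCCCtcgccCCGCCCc
Bmi1, chr2:18676768-18677017, plus strand: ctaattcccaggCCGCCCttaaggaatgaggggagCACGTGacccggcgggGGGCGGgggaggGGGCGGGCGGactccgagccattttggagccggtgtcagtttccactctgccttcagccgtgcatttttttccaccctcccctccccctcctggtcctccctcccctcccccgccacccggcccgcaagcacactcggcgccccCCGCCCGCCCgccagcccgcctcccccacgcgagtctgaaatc
The Phc1 window held no match to any of the 5 motifs, with 49.6% GC and 8 CpG sites. The downstream Phc2 window was the densest, with 76% GC, 34 CpG sites and 6 GC boxes, while the middle Phc2 window had 1 CpG site, a CCAAT box and an octamer. Bmi1 held 6 GC boxes and an E-box. The RefSeq table held promoters for 7 of the 10 genes, 9 windows in all, and E-boxes stood in those of Bmi1, Pcgf2, Phc3 and the upstream Phc2 start. Among 32851 promoters in the table, 32.7% held a GC box, 33.8% a CCAAT box, 6.02% this E-box, 12.4% a TATA box and 1.6% the octamer, and the median promoter had 52.4% GC and 6 CpG sites. A match is a stretch of letters and not a measured binding site.

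**Figure D2:**
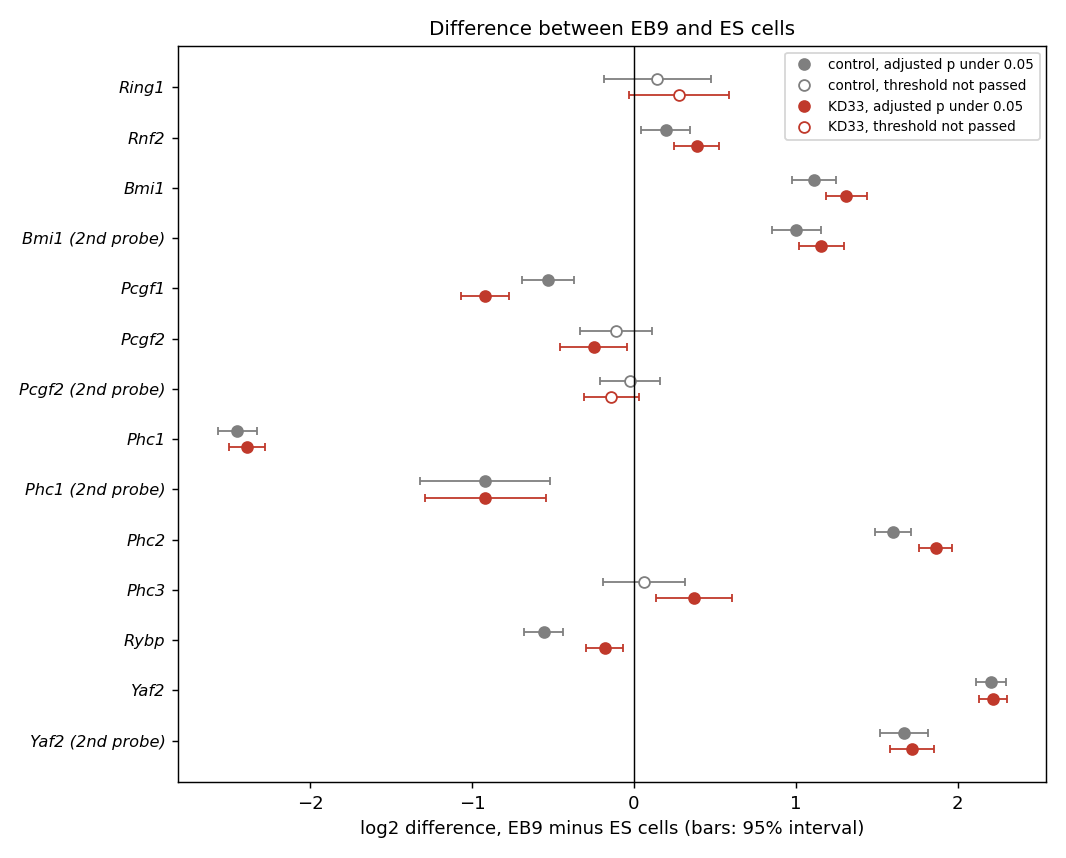
The log2 difference of EB9 minus ES cells is plotted for the 14 probes, in control (grey) and KD33 (red) cells, with 95% intervals; filled points passed an adjusted p of 0.05. Phc1 lies near -2.4 and Yaf2 near 2.2 in both, while the Pcgf1, Phc2 and Rybp points of control and KD33 are set apart.

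The same comparison in KD33 cells shows how the subunits differed between stages where Cbx7 had been targeted. Phc1 stood at 2.82, 2.84, 2.91 and 2.83 in ES KD33 and at 0.48, 0.38, 0.40 and 0.59 in EB9 KD33, 5.23-fold lower (log2 -2.39, SE 0.052). Phc2 stood at 2.60, 2.70, 2.62 and 2.59 against 4.50, 4.52, 4.48 and 4.48, 3.64-fold higher (log2 1.86, SE 0.047), and Yaf2 at 0.79, 0.84, 0.74 and 0.83 against 3.06, 3.01, 2.99 and 3.02, 4.65-fold higher (log2 2.22, SE 0.039). Bmi1 was 2.48-fold higher and Pcgf1 1.89-fold lower, again with no overlap. Of the 10 genes 5 rose, 4 fell and 1, Ring1, did not pass (0.28, adjusted p = 0.0880); Ring1 passed with slide in the model (0.28, adjusted p = 0.0120), and was -2.31, -2.26, -2.09 and -2.34 against -2.09, -1.84, -1.87 and -2.09. The background was again high, with 78.1% of probes past the threshold, 34.2% higher and 43.9% lower, and 7 members had groups that did not overlap beside 74.3% of all probes. The members' median change was 0.32 and that of all probes -0.17.

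Rnf2 rose by 0.39 (SE 0.064, adjusted p = 8.522e-05) and Phc3 by 0.37 (SE 0.11, adjusted p = 0.00695) between ES KD33 and EB9 KD33. Pcgf2 fell by 0.25 on its brighter probe (adjusted p = 0.0292) with overlapping groups, and its dimmer probe was at -0.14 (adjusted p = 0.122, or 0.00362 with slide in the model); the call was lost without ES KD33 2 (-0.18, adjusted p = 0.0974), ES KD33 3 (-0.23, adjusted p = 0.0676), EB9 KD33 1 (-0.19, adjusted p = 0.0948) or EB9 KD33 4 (-0.23, adjusted p = 0.0701). Rybp stood at 3.86, 3.93, 3.74 and 3.82 in ES KD33 and at 3.61, 3.68, 3.66 and 3.68 in EB9 KD33, a fall of 0.18 (SE 0.052, adjusted p = 0.00566) whose direction turned to 0.077 (adjusted p = 0.225) with normexp correction and quantile normalisation, and which did not pass with scaling on the array median (-0.0992, adjusted p = 0.339). The fall of Rybp between ES control and EB9 control kept its direction under each of these settings.

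In ES cells, KD33 against control asks which PRC1 subunit genes differ when Cbx7 is targeted in undifferentiated cells. Rybp was 1.40-fold, Bmi1 1.38-fold and Phc2 1.23-fold lower in KD33, and Pcgf1 was 1.22-fold higher. The other 6 genes did not pass, among them both core ligases. Of all probes 38% passed, 21.9% higher and 16.2% lower, beside 4 of 10 members with 1 higher and 3 lower; the members' median change was -0.088 and that of all probes 0.047. By the brightest probe, groups did not overlap for 5 members, the 4 named and Phc1, beside 49.2% of all probes.

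**Figure D3:**
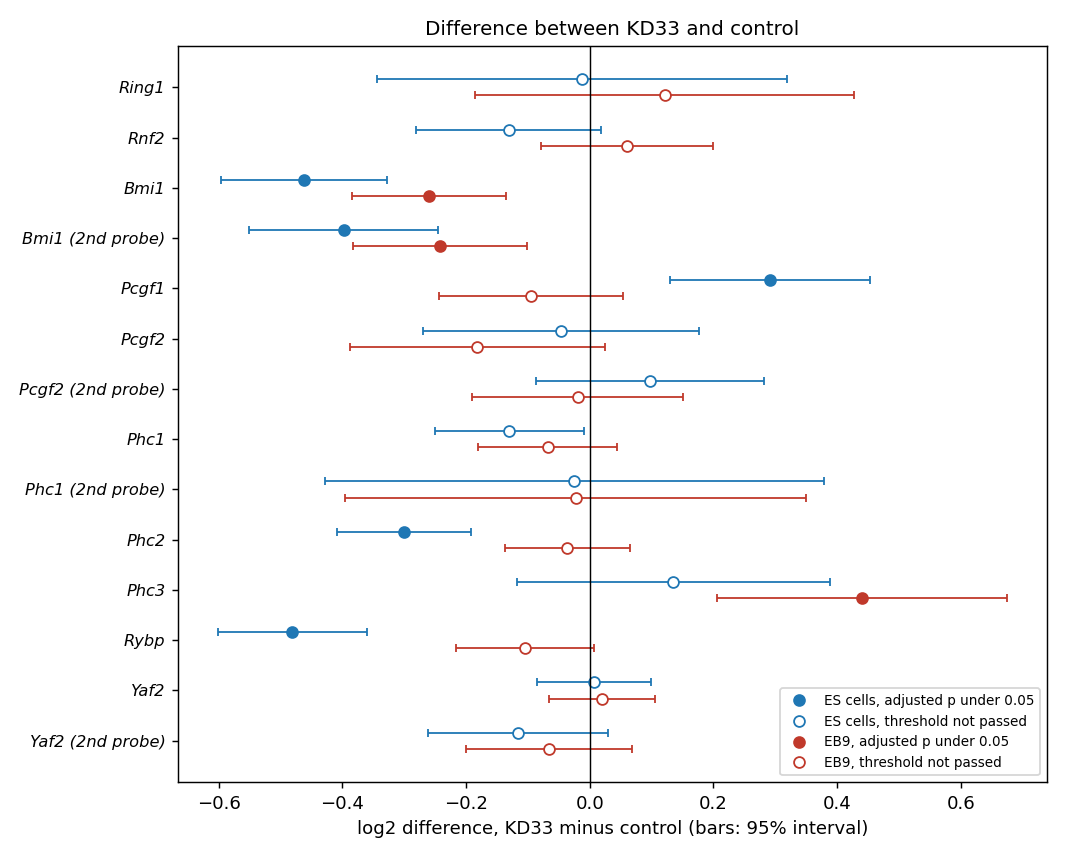
The log2 difference of KD33 minus control is plotted for the 14 probes, in ES cells (blue) and EB9 (red), with 95% intervals; filled points passed an adjusted p of 0.05. Both Bmi1 probes are below 0 in both stages, whereas Pcgf1, Phc2 and Rybp are filled in ES cells alone and Phc3 in EB9 alone.

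Among canonical subunits, Bmi1 in ES KD33 stood at -1.86, -1.81, -1.90 and -1.89, below all 3 ES control arrays (-1.41, -1.37 and -1.43). The difference was -0.46 (SE 0.062, adjusted p = 8.303e-05), and the second probe read -0.40 (adjusted p = 0.0006723). Within the 3 slides that held both groups it was -0.45, -0.44 and -0.48, so the sizes were alike from slide to slide. Phc2 was below control on every array (2.59 to 2.70 against 2.87 to 2.99; log2 -0.30, SE 0.050, adjusted p = 0.0004388), and with scaling on the array median it no longer passed (-0.27, adjusted p = 0.0554). Phc1, at 2.82 to 2.91 against 2.96 to 2.99, differed by -0.13 (95% interval -0.25 to -0.0091) and did not pass (adjusted p = 0.0863), but passed with slide in the model (-0.15, adjusted p = 0.0323) and after normexp correction with quantile normalisation (-0.21, adjusted p = 0.0174). Pcgf2 (-0.046, 95% interval -0.27 to 0.18) and Phc3 (0.14, 95% interval -0.12 to 0.39) overlapped with control.

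Among variant subunits, Rybp in ES KD33 lay between 3.74 and 3.93, beneath the ES control arrays at 4.32, a difference of -0.48 (SE 0.056, adjusted p = 2.573e-05). Its paralog Yaf2 overlapped with control (0.0065, 95% interval -0.086 to 0.099, adjusted p = 0.931), and the second Yaf2 probe was at -0.12 (adjusted p = 0.204). Pcgf1 was the only member that rose, to -0.067, -0.33, -0.31 and -0.17 from -0.40, -0.52 and -0.61 (log2 0.29, SE 0.074, adjusted p = 0.00766), without overlap. With scaling on the array median it was 0.32 and did not pass (adjusted p = 0.0909). The core ligases stayed within the spread or close to it, with Rnf2 at -0.13 (95% interval -0.28 to 0.019, adjusted p = 0.162) and Ring1 at -0.012 (95% interval -0.34 to 0.32, adjusted p = 0.965).

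In EB9, the same contrast asks which subunits differ once the cells have differentiated. Bmi1 was 1.20-fold lower in KD33 and Phc3 1.36-fold higher, and the other 8 genes did not pass. Of all probes 14.1% passed, 7.64% higher and 6.48% lower, beside 2 of 10 members, 1 in each direction, and 15.2% of all probes had groups that did not overlap, beside the same 2 members. The median change was -0.052 for the members and -0.0090 for all probes.

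Bmi1 stood at -0.39, -0.17, -0.28 and -0.34 in EB9 control and at -0.44, -0.60, -0.62 and -0.55 in EB9 KD33 (log2 -0.26, SE 0.058, adjusted p = 0.0110). The groups were apart by little, since control 1 and KD33 1, which share a slide, differed by -0.044, while the differences on the other slides were -0.44, -0.34 and -0.21. The second Bmi1 probe gave -0.24 (adjusted p = 0.0272) with overlapping groups. With scaling on the array median Bmi1 was -0.30 and did not pass (adjusted p = 0.0671), nor did it with only the EB9 arrays in the model (-0.26, adjusted p = 0.0836).

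Phc3 stood at -1.77, -1.69, -1.99 and -1.79 in EB9 control and at -1.40, -1.69, -1.15 and -1.24 in EB9 KD33 (log2 0.44, SE 0.11, adjusted p = 0.0180). KD33 array 2, at -1.686, lay only just above control array 2, at -1.695, and the slide differences were 0.36, 0.0089, 0.84 and 0.54. The call did not hold without EB9 control 3 (0.38, adjusted p = 0.0562), EB9 KD33 3 (0.37, adjusted p = 0.0596) or EB9 KD33 4 (0.40, adjusted p = 0.0614), nor with normexp correction and quantile normalisation (0.36, adjusted p = 0.0889), scaling on the array median (0.40, adjusted p = 0.0913) or only the EB9 arrays (0.44, adjusted p = 0.0924). The other 2 Phc3 probes were not well above background on any array. Among the members that did not pass, Pcgf2 was at -0.18 (95% interval -0.39 to 0.025, adjusted p = 0.241) and passed with slide in the model (adjusted p = 0.0412), Rybp at -0.10 (95% interval -0.22 to 0.0075), Pcgf1 at -0.095 (95% interval -0.24 to 0.054), Phc1 at -0.068 (95% interval -0.18 to 0.044) and Phc2 at -0.036 (95% interval -0.14 to 0.065). Yaf2 was the closest to 0 (0.020, 95% interval -0.065 to 0.11), Rnf2 was at 0.060 (95% interval -0.078 to 0.20) and Ring1 at 0.12 (95% interval -0.19 to 0.43).

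Whether the KD33 difference itself differed between EB9 and ES cells was tested as an interaction. It did for 3 members: Rybp (0.38 more positive in EB9, SE 0.076, adjusted p = 0.00253), Phc2 (0.26, SE 0.068, adjusted p = 0.0113) and Pcgf1 (-0.39, SE 0.10, adjusted p = 0.0122). For Rybp the KD33 difference was -0.48 in ES cells and -0.10 in EB9, for Phc2 -0.30 and -0.036, and for Pcgf1 0.29 and -0.095. Over all probes 28.8% passed this test, 12.4% positive and 16.4% negative, beside 3 of 10 members, 2 positive and 1 negative, with medians of 0.16 for the members and -0.037 for all probes. With scaling on the array median none of the 3 passed (Rybp 0.30, adjusted p = 0.139; Phc2 0.19, adjusted p = 0.361; Pcgf1 -0.46, adjusted p = 0.0988). The Bmi1 difference was 0.20 more positive in EB9 and did not pass (adjusted p = 0.0950), nor did that of Phc3 (0.31, adjusted p = 0.181).

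Members that can occupy the same position were then set against each other within each array, as the log2 difference of 1 gene minus the other. Each gene was read by its brightest probe, and no scaling constant of an array can change the difference. The change of this difference was tested for 8 pairs in 4 comparisons by a two-sided exact permutation test over arrays. None of the 32 tests passed after Benjamini-Hochberg adjustment: the smallest p these group sizes allow, 0.0286, was reached by 18 tests and gave an adjusted p of 0.0508. With normexp correction and quantile normalisation, or with the authors' values, 20 of the 32 passed, at an adjusted p of 0.0457. Tests at the smallest p share an adjusted p that is set by how many of them reach it, so 18 did not pass and 20 did. These 2 settings gave the same values within 0.0153 and are not separate checks. Phc1 relative to Phc2 fell by 4.05 from ES control to EB9 control and by 4.25 from ES KD33 to EB9 KD33. Rybp relative to Yaf2 changed by -2.76 and -2.40, and Pcgf1 relative to Bmi1 by -1.64 and -2.23, each with no overlap between stages and at the smallest p. Within ES cells, KD33 differed from control by 0.75 for Pcgf1 relative to Bmi1, by -0.49 for Rybp relative to Yaf2 and by -0.42 for Bmi1 relative to Pcgf2, at the same smallest p. In contrast to these, the catalytic pair kept overlapping groups in each comparison, with Ring1 relative to Rnf2 at -0.050 between EB9 control and ES control (exact permutation p = 0.83) and at 0.12 between ES KD33 and ES control (exact permutation p = 0.600).

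**Figure D4:**
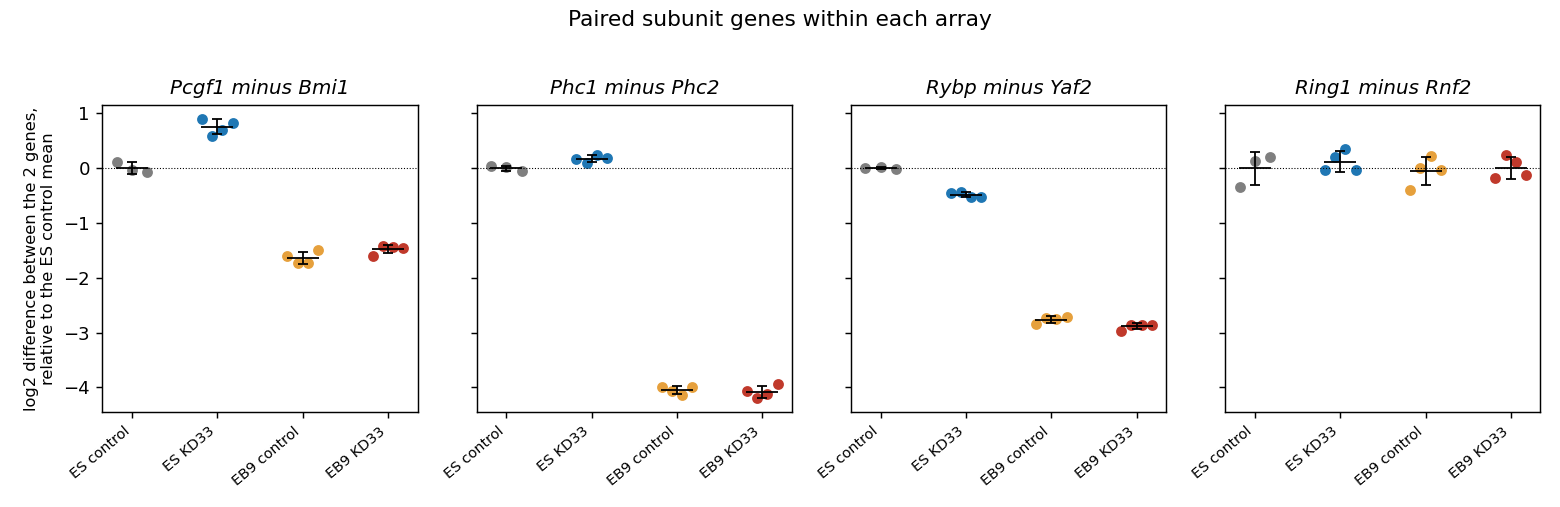
The log2 difference between 2 genes of a pair is plotted for each array relative to the mean of the ES control arrays, with group means and whiskers of 1 SD. Phc1 minus Phc2 lies near -4 in both EB9 groups, Rybp minus Yaf2 between -2.97 and -2.72, and Ring1 minus Rnf2 overlaps in all 4 groups.

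The order of the 4 groups differed between genes. Bmi1 rose in the order ES KD33, ES control, EB9 KD33, EB9 control (means -1.86 ± 0.044, -1.40 ± 0.029, -0.55 ± 0.084 and -0.29 ± 0.096, SD, n = 4, 3, 4 and 4), and neighbours in that order did not overlap. Rybp ran from EB9 KD33 (3.66 ± 0.034) through EB9 control (3.76 ± 0.078) and ES KD33 (3.84 ± 0.077) to ES control (4.32 ± 0.0013), and only the step to ES control was free of overlap between neighbours. Pcgf1 ran from EB9 KD33 (-1.13 ± 0.021) and EB9 control (-1.04 ± 0.086), which overlapped, through ES control (-0.51 ± 0.11) to ES KD33 (-0.22 ± 0.12). On its brighter probe, Yaf2 was near 0.80 in both ES groups and near 3.0 in both EB9 groups, with overlap within each stage.

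The rest of the Polycomb machinery was read from lists of genes. Among other canonical subunits, Scml2, an Scm protein, fell in ES KD33 (log2 -0.79, SE 0.062, adjusted p = 1.065e-06). Of 22 other variant subunits, 7 rose and 2 fell in ES KD33, led by Cbx3 (0.53, adjusted p = 8.416e-05), a heterochromatin protein of the Pcgf6 complex, and Mga (0.44, adjusted p = 0.00252), a DNA-binding subunit of the same complex; Kdm2b and Bcorl1 fell. These 9 of 22, like the PRC2 genes below, are near the 38% of all probes that passed in this comparison. In EB9 KD33, 1 rose, Mga (0.33, adjusted p = 0.0259), and 1 fell, Csnk2b (-0.41, adjusted p = 0.0006241), the regulatory subunit of casein kinase 2. These stand beside the 14.1% of all probes that passed in EB9 KD33, as do the EB9 KD33 counts of the lists below. Of 11 PRC2 genes, 2 rose and 2 fell in ES KD33, among them Phf19 (0.71, adjusted p = 0.0006351), which reads a methyl mark, and the core subunit Suz12 (-0.62, adjusted p = 1.166e-05), and besides these Rbbp4 rose and Aebp2 fell. In EB9 KD33, Jarid2 rose (0.43, adjusted p = 0.0162), Suz12 fell (-0.21, adjusted p = 0.0339) and the other 9 did not pass, of which Ezh1, Phf1, Phf19 and Rbbp4 passed with slide in the model (adjusted p = 0.0176, 0.00686, 0.00645 and 0.0423). That model raised the share of all probes passing in EB9 KD33 from 14.1% to 25.4%. It gained calls elsewhere too, among them Bcor and Wdr5 in EB9 KD33 and Eed and Phf1 in ES KD33. Of 6 genes for the removal of ubiquitin from H2A, Asxl2 (0.61, adjusted p = 0.0001629) and Bap1 (0.44, adjusted p = 0.00387), which form 1 enzyme, rose in ES KD33 and Asxl1 fell, beside 38% of all probes that passed. In EB9 KD33 only Mysm1 passed (0.20, adjusted p = 0.0316). With so few genes, these counts are not read as a result about the list.

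Between EB9 control and ES control, 9 of the 11 PRC2 genes fell and Phf1 and Rbbp7 rose, with a median of -0.64, while among other canonical PRC1 genes Cbx2, Cbx8 and Scmh1 rose and Scml2 fell. Genes beyond the 2 with the greatest change in a list are named here after their values were seen. The 22 other variant genes were split, with 9 up and 9 down and a median of -0.023. Over all probes 74.9% passed in this comparison, 33.7% higher and 41.2% lower, so the counts of the variant genes are near the background. The cell types in the samples changed at the same time: all 10 pluripotency markers were lower in EB9 control (median -4.64), 9 of 11 mesoderm and endoderm markers were higher, and of 6 neural markers Nes and Ncam1 were higher and Sox1 and Tubb3 lower. Of 8 fibroblast markers 7 were higher in EB9 and Thy1 lower, with a log2 summed level of 5.76 to 6.26 over all ES arrays and 7.38 to 7.95 over all EB9 arrays. Col3a1, Postn, Lum and Dcn were not well above background on any ES array. The part of these shifts in the subunit changes was not tested.

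The same markers were also set beside the KD33 results within a stage. In ES cells the log2 summed pluripotency level was 8.36 to 8.40 in control and 8.26 to 8.52 in KD33, with Pou5f1 and Dppa3 higher and Zfp42 and Klf4 lower of 10 markers. Of 6 neural markers 4 were higher in ES KD33 and Tubb3 lower, with summed levels of 1.83 to 2.04 in control and 1.95 to 2.00 in KD33, and of 8 fibroblast markers Fn1 was higher (0.35), Col1a1 lower (-0.42) and the other 6 did not pass. Of 11 mesoderm and endoderm markers Gata4 (0.79) and Hand1 (0.36) were higher in ES KD33 and Eomes (-1.13), Foxa2 (-0.69) and Afp lower, the last not well above background on any ES array. These stood beside the lower Bmi1, Phc2 and Rybp and the higher Pcgf1 in ES KD33, where 21.9% of all probes passed higher and 16.2% lower. In EB9 the pluripotency sum was 4.05 to 4.44 in control and 4.35 to 4.62 in KD33, with 4 of 10 markers higher and none lower, beside the lower Bmi1 and the higher Phc3. Over all probes 7.64% passed higher and 6.48% lower in EB9 KD33. Of 11 mesoderm and endoderm markers 5 were lower in EB9 KD33 and none higher, with a median of -0.42 over the list. T (-2.79), Mesp1 (-1.665) and Eomes (-0.89) were among the lower ones. The log2 summed level, which the brightest markers dominate, was 5.01 to 5.13 in control and 5.03 to 5.11 in KD33 and so did not show these falls. Besides these markers, the neural marker Ncam1 was higher (0.77) and the fibroblast marker Thy1 lower (-0.56). The part of these differences in the KD33 results was not tested.

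As a description of likeness over the 15 arrays, the genes whose levels followed those of 4 members most closely were sought among 21333 others. For Bmi1 they were Plpp3, Lysmd2 and Ak3 (Pearson r = 0.995, 0.995 and 0.994), and for Pcgf1 Gm8587, Las1l and Ubr7 (0.994, 0.994 and 0.993). For Rybp they were Trim27, Efhc2 and Ube2j2 (0.983, 0.980 and 0.978). For Pcgf2 the closest were an unnamed transcript, Gm6557 and Gm9304 (0.950, 0.941 and 0.933). The arrays share 4 groups and 4 slides, so the points are not independent and no test is given.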

How the data were processed

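RNA of 4 groups was measured on 15 arrays, from 500 ng of total RNA per sample per the labels. Per the file headers, the scans were read by Agilent Feature Extraction (version 10.7.3.1); the processed signal it gave is an intensity, corrected for background and deposited without scaling between arrays. The authors' deposited value table holds log2 values; how it was made is not stated in the sources used here, but normexp correction (offset 50) with quantile normalisation gave the same values within 0.0153.

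Levels are log2 processed signals minus their 75th percentile over the non-control spots of an array. Spots the software marked as outliers (109 to 179 per array) were left out, and spots of a probe were averaged. Probes well above background on at least 3 arrays of a group were kept (27270 of 39429). Group differences were estimated by limma (version 3.58.1, in R 4.3.3 with data.table version 1.17.8), with a mean for each of the 4 groups, 11 residual and 1.66 prior degrees of freedom, two-sided, with Benjamini-Hochberg adjustment over the kept probes and a threshold of 0.05. A gene counts by its brightest kept probe. SE is the moderated SE and SD that of the arrays of a group. The procedure was tested on simulated data with independent noise between arrays. That test held no slide effect, so it does not cover arrays of a slide varying together.

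The members and all gene lists were chosen with earlier results of these data known. Genes named by rule outside the members were the 2 with the greatest change past the threshold in each Polycomb list and KD33 comparison, and the 3 most correlated with Bmi1, Pcgf2, Pcgf1 and Rybp. Other list genes were named after their values were seen, among them Kdm2b, Bcorl1, Rbbp4, Aebp2, Asxl1, Ezh1, Phf1, Bcor, Wdr5 and Eed. The other canonical list is not reported here in full. Promoters come from RefSeq (GRCm38.p6). The arrays lay on 4 slides, with each group at 1 fixed position. Deviations from the group means correlated at a median of 0.41 between arrays of 1 slide and different groups (21 pairs), and at -0.31 between ES control arrays and arrays of the same replicate number (9 pairs), so the numbers were not taken to pair the samples. Alternatives were array-median scaling, normexp with quantile normalisation, the authors' values, other filters, slide or replicate number as a block, only the compared groups, a variance trend, 1 probe per gene, all spots kept, and each array left out. The number of arrays limits the precision.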

Additional observations from a re-analysis of the deposited data

Results flagged for a closer look

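Of 42 probe and group combinations with 4 arrays, 1 had an array that stood apart from the rest of its group by Dixon's criterion; chance gives about 1 in 20. This was EB9 control 1 on the dimmer Bmi1 probe, at -2.16 beside -1.85, -1.85 and -1.89 in the other EB9 control arrays.

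For 3 genes the KD33 difference differed between EB9 and ES cells by the interaction test in limma: Rybp by 0.38, Phc2 by 0.26 and Pcgf1 by -0.39 (EB9 minus ES cells, log2). Rybp and Phc2 were below control on all 4 ES KD33 arrays and Pcgf1 was above control on all of them.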

How the results depend on the processing

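Of the counts of members past the threshold, array-median scaling moved that of KD33 in ES cells from 4 to 2, that of KD33 in EB9 from 2 to 0 and that of the interaction from 3 to 0, and it moved the median of all probes between EB9 control and ES control from -0.129 to 0.027. It lowered the calls over all probes in the interaction from 7864 to 4890, in KD33 in ES cells from 10374 to 7333 and in KD33 in EB9 from 3852 to 1577. For KD33 in EB9 the count was 1 with normexp correction and quantile normalisation together, or with the authors' values, and 0 with only the EB9 arrays, where 1257 probes passed. The cause was not tested. Leaving out 1 array gave 4 to 4 members for KD33 in ES cells, 1 to 2 for KD33 in EB9 (1 without EB9 control 3, EB9 KD33 3 or EB9 KD33 4), 6 to 8 between the controls, 8 to 10 between the KD33 groups and 3 to 4 for the interaction.

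With the replicate block the counts were 4, 2, 7, 10 and 3 in the order of KD33 in ES cells, KD33 in EB9, EB9 against ES in control and in KD33, and the interaction, and with the slide as a block 5, 3, 7, 10 and 3. In the same order, 39.7%, 16.5%, 75.9%, 79.8% and 31.7% of all probes passed with the replicate block. With the slide as a block 47%, 25.4%, 81.1%, 84.9% and 40% passed, so calls rose over the whole array and not for the members alone.

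Directions turned mostly for values near 0. Ring1 in ES cells was 0.020 with array-median scaling, 0.056 with normexp and quantile normalisation or the authors' values, 0.0056 with the slide as a block and 0.057 with the replicate block. With normexp and quantile normalisation and with the authors' values, in that order, Yaf2 in ES cells was -0.054 and -0.054, Phc2 in EB9 was 0.00960 and 0.00967, Rybp between the KD33 groups was 0.077 and 0.077, and Ring1 relative to Rnf2 in EB9 was -0.029 and -0.029. With array-median scaling, Yaf2 in EB9 was -0.022, Pcgf2 between the controls 0.043, and the interactions of Phc1 and Yaf2 -0.012 and -0.061. With 1 array left out, the values that turned ranged from -0.14 to 0.059 for Ring1, -0.12 to 0.015 for Pcgf2 and -0.0060 to 0.026 for Yaf2 in ES cells, from -0.027 to 0.21 for Ring1 in EB9, and from -0.015 to 0.26 and -0.0065 to 0.028 for the interactions of Ring1 and Yaf2. For Ring1 relative to Rnf2 they ranged from -0.054 to 0.22 in ES cells, -0.053 to 0.15 in EB9 and -0.22 to 0.064 between the controls, and for Phc1 relative to Phc2 in EB9 from -0.080 to 0.0040. With normexp and quantile normalisation 20 of the 32 pair tests passed, all at the smallest p these group sizes allow. The same number passed with the authors' values, which are nearly the same values. Over the settings that kept all arrays, 497 values of single genes kept their direction and their side of the threshold, 15 turned, 14 lost a call and 14 gained one. Signal near background limits the second Phc1 probe and the RefSeq Cbx7 probe.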
